A study of Mus musculus with 20 samples.

Results

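The genes described here encode the protein factors that start and elongate translation, their closest regulators, and the aminoacyl-tRNA synthetases, measured in mouse CD8 T cells before and during activation. Members were the genes whose single annotated symbol began with Eif1 to Eif6 or with Eef1 or Eef2, or was that of an aminoacyl-tRNA synthetase. They numbered 71 of the 8251 genes that the array named by 1 symbol, and the brightest probe set stood for each gene. The rule for members used symbols alone, and mean brightness chose the probe set. The filter on low values kept 69 members of 6279 genes, and left out Eef1g and Eif4h. By name and known role the 69 were 38 factors, 9 regulators and 22 synthetases, of which 17 are cytosolic and 5 mitochondrial.

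RNA came from OT-1 TCR transgenic CD8 T lymphocytes of C57Bl6 mice aged 6 to 8 weeks, whose transgenic receptor sees an ovalbumin peptide on H-2Kb. CD44lo cells were enriched from lymph nodes by negative selection, and the stimulated cells met the peptide complex and B7-1 on latex beads (Ag-B7), always with human IL-2 in the medium. Ag-B7 with murine IL-12 (Ag-B7+IL12) and Ag-B7 with universal type I interferon (Ag-B7+IFNa/b) were taken at 24, 48 and 72 h, Ag-B7 with trichostatin A, a histone deacetylase inhibitor (Ag-B7+TSA), at 72 h, and Ag-B7 without these additions at 24, 48 and 72 h. Ag-B7 at 48 h had 4 arrays. There were 3 arrays each of Ag-B7+IL12 at 48 h, Ag-B7+IFNa/b at 48 h and naive cells at 0 h, while each of the 7 remaining groups rested on 1. The cells were a purified bulk population, the labels call the replicates biological, and they do not say whether a replicate was 1 mouse or a pool. In such bulk samples fewer cells of a type and less RNA per cell cannot be told apart.

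Translation begins when eIF2 brings the initiator tRNA to the small ribosomal subunit, eIF1, eIF1A and eIF5 guide the choice of the start codon, and eIF3 and the cap-binding eIF4 proteins recruit the mRNA. eIF2B recharges eIF2 with GTP, and the kinases of eIF2 alpha block that step under stress, while the 4E-binding proteins hold the cap-binding protein eIF4E. eEF1A then delivers charged tRNAs, eEF1B recharges it, and eEF2 moves the ribosome along. The synthetases join each amino acid to its tRNA. Resting T cells make little protein, and activation by antigen and costimulation raises their protein synthesis and cell size.

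Several arrays stood apart before any comparison. The ratio of 3' to 5' actin signal, a measure of RNA integrity, was at most 1.15 on every stimulated array, against 1.13, 2.06 and 1.61 on naive replicates 1, 2 and 3. The 9 hybridization control probe sets averaged 12.16 to 13.18 on the log2 scale on stimulated arrays, against 13.40 to 14.86 on naive arrays, so their level moved with the main comparison. Eif2s3y, a Y-linked member, lay below the X-linked transcript Xist on 5 arrays, which were naive replicate 1, Ag-B7 48 h replicates 1 and 4, Ag-B7+IL12 48 h replicate 1 and Ag-B7+IFNa/b 48 h replicate 3. The labels give no sex. The CD8 T cell markers Cd8a and Cd3e were at 12.60 or above on every array. Of 11 tested identity markers, 2 rose (Thy1 and Cd5) and 3 fell (Lat by 1.75, Cd2 by 1.00 and Cd247 by 0.74) in Ag-B7 cells at 48 h relative to naive cells, against 26.1% and 35.6% of all genes. Of 21 tested markers of B, myeloid, NK, stromal and other cells, 2 were higher and 14 lower in Ag-B7 cells at 48 h than in naive cells. Over all genes tested in this comparison, 26.1% were higher and 35.6% lower. The summed intensity of the 34 such markers on the array was 10870 to 18220 in Ag-B7 at 48 h, against 36780 to 49490 in naive cells. At 72 h it was 20470 to 50460, of which the NK list gave 4670 to 33680. The 2 higher markers were H2-Ab1 of the B cell list, at 9.94 against 7.56 in naive cells, and Klrk1 of the NK list, at 9.90 against 7.75. Among the 14 lower, Hba-a1, a globin gene of red cells, averaged 8.38 in Ag-B7 cells at 48 h against 13.03 in naive cells. The collagen gene Col1a2 averaged 10.73 against 12.18, and the myeloid gene Ctss 11.27 against 13.09. On the Ag-B7 array of 72 h, Klrd1 read 14.77, Ctss 12.71 and Klrk1 12.51, and activated CD8 T cells are known to express Klrd1 and Klrk1. The part of RNA integrity, control level and these markers in the results below was not tested.

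Most of the translation genes were higher in activated than in resting cells. At 48 h, 44 of the 69 members rose in Ag-B7 cells relative to naive cells at an adjusted p below 0.05, while 26.1% of all genes tested rose. With quantile normalization 43 members and 1941 of the 6279 genes rose, with median centring 50 members and 2555 genes, and with hybridization control scaling 61 members and 4026 genes. Another 10 fell, against 35.6% of all genes. None of these 10 was called lower when arrays were scaled to the hybridization controls, where only 57 of the 6279 genes were. The median log2 difference was 0.88 over the members and -0.23 over all genes tested, and with hybridization control scaling these medians were 2.65 and 1.54. Errors of differences are standard errors from 4 Ag-B7 and 3 naive arrays. The members that rose were 18 of 22 synthetases (81.8%), 22 of 38 factors (57.9%) and 4 of 9 regulators (44.4%). Of the 44 members called higher, 25 kept that call under all 20 alternative analyses. With the 5 low-Eif2s3y arrays left out, 36 members rose and 5 fell, and with naive replicates 2 and 3 left out, 32 rose and 6 fell, where the lone naive array is assumed to vary like the other groups. Of 21 further probe sets for called members, 11 had the opposite sign, in 9 of 16 genes: Eif2d, Eif2s2, Eif3b, Eif3e, Eif3l, Eif4b, Eif4e2, Wars and Yars.

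**Figure D1:**
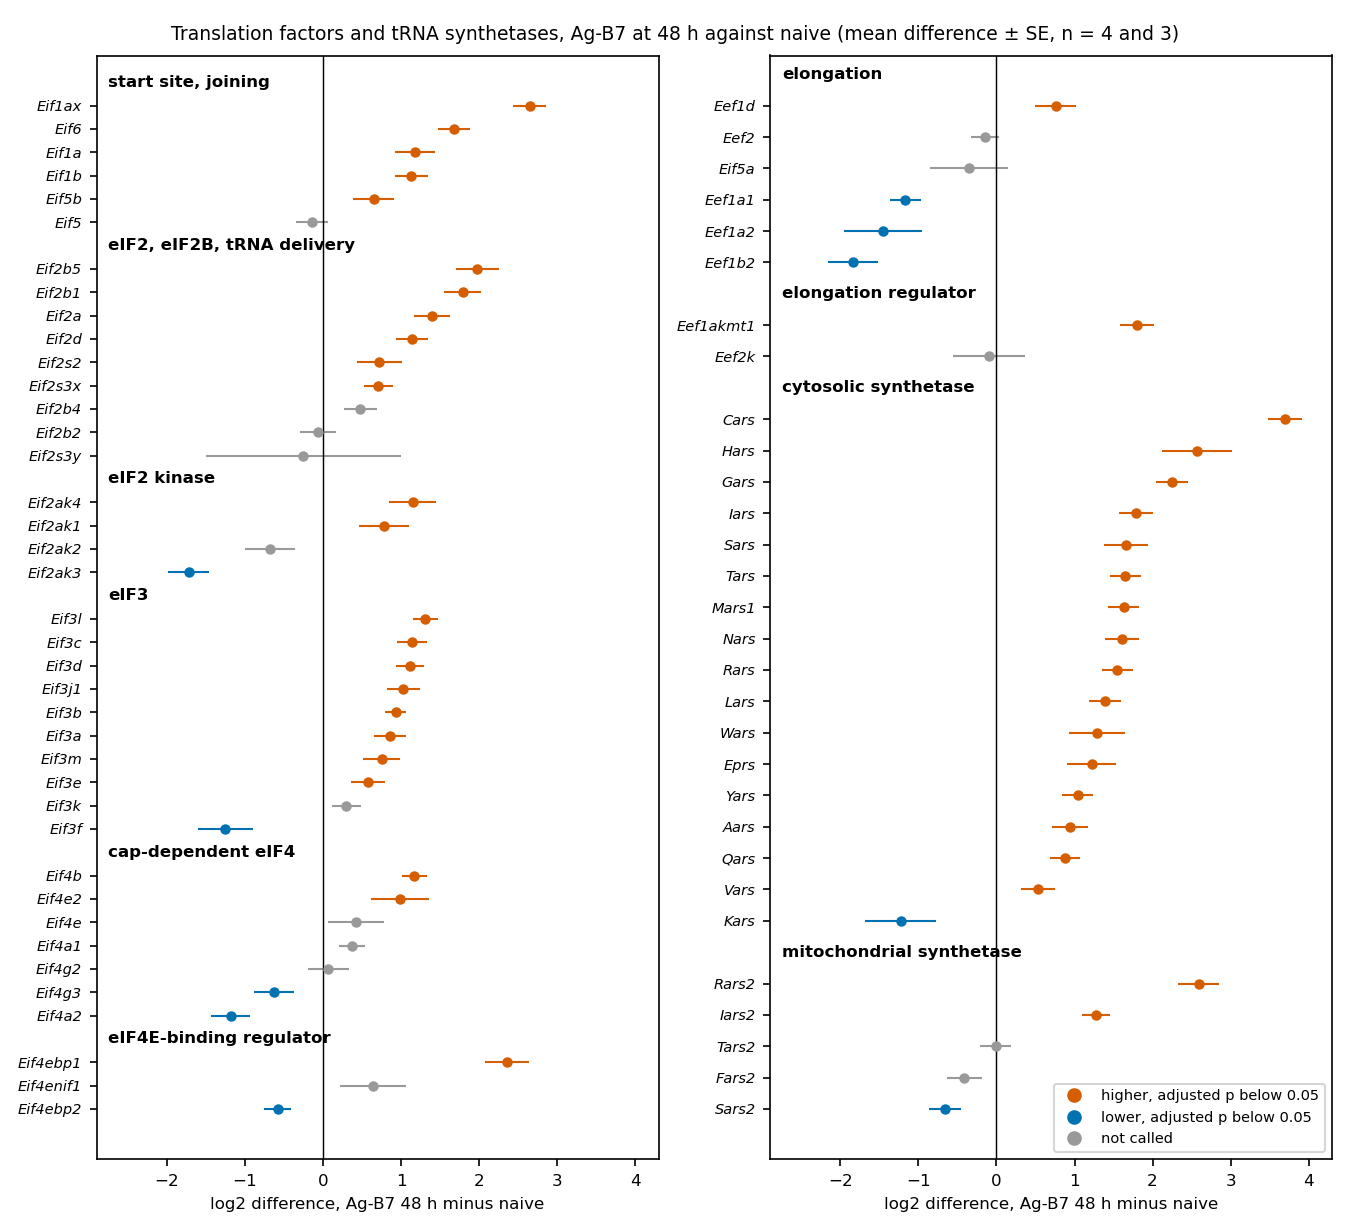
Log2 difference between Ag-B7 cells at 48 h (4 arrays) and naive cells (3 arrays) for the 69 members, grouped by role, with bars for the standard error and colours for the call at an adjusted p of 0.05. Cytosolic synthetases lie to the right of 0 except Kars. Of the 6 elongation factors, 3 lie to the left as called lower on the deposited scale, against 35.6% of all genes. Hybridization control scaling calls none of the members lower, and 57 of all 6279 genes.

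Cytosolic synthetases moved together. Of 17, 16 rose and 1 fell in Ag-B7 cells at 48 h, with a median log2 difference of 1.55. Cars, which charges cysteine tRNA, read 10.26, 10.79, 10.65 and 10.37 on the log2 scale in Ag-B7 cells, against 6.65, 7.08 and 6.72 in naive cells. Every Ag-B7 array lay more than 3 log2 units above every naive array, and the difference was 3.70 ± 0.22 (SE, adjusted p = 2.14e-09). Gars, the glycine enzyme, read 12.67, 12.88, 12.63 and 13.33 in Ag-B7 cells, against 10.89, 10.12 and 10.89 in naive cells. The groups did not overlap (adjusted p = 2.7e-07), and levels were 4.74-fold higher in Ag-B7 cells. Iars, the isoleucine enzyme, read 11.84, 12.40, 12.48 and 12.92 in Ag-B7 cells, against 10.42, 10.67 and 10.77 in naive cells. That was a difference of 1.79 ± 0.22 (adjusted p = 6.75e-06), and these groups also did not overlap.

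The histidine enzyme Hars read 11.39, 11.52, 11.36 and 11.58 in Ag-B7 cells, against 9.73, 7.07 and 9.87 in naive cells. Its difference of 2.57 ± 0.45 (adjusted p = 0.000155) drew on the low value of naive replicate 2, and it kept its call in each of the 20 alternatives, at 1.66 or more. Sars, Tars, Mars1, Nars and Rars, for serine, threonine, methionine, asparagine and arginine, rose by 1.66, 1.65, 1.63, 1.61 and 1.55. Lars (leucine) rose by 1.39, Eprs (glutamate and proline) by 1.22, Yars (tyrosine) by 1.04, Aars (alanine) by 0.94 and Qars (glutamine) by 0.88. Vars, the valine enzyme, had the smallest called rise, 0.53 ± 0.22 (adjusted p = 0.0434), with overlapping groups, and lost its call in 10 of 20 alternatives, among them those without naive replicate 2 or 3 or Ag-B7 replicate 2 or 4.

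Kars, the lysine enzyme, was the exception with a difference of -1.23 ± 0.45 (adjusted p = 0.0251). It read 7.73, 8.26, 8.64 and 8.41 in Ag-B7 cells, against 8.78, 10.65 and 9.06 in naive cells, so naive replicate 2 stood far above the rest. Kars was also the dimmest cytosolic synthetase on every Ag-B7 array of 48 h. Its call was lost without naive replicate 2, without Ag-B7 replicate 1 or with a stricter filter on low values, at percentile 60. Under hybridization control scaling the difference was 0.54. Wars, the tryptophan enzyme, rose by 1.29 ± 0.36 (adjusted p = 0.00531) on its chosen probe set, but 2 further probe sets for Wars gave -0.27 and -0.37. Yars likewise had a second, dimmer probe set at -1.81, so the direction of these genes depended on the probe set.

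The mitochondrial synthetases did not move as one. Rars2, the mitochondrial arginine enzyme, read 11.66, 11.51, 11.50 and 11.82 in Ag-B7 cells, against 9.62, 9.24 and 8.25 in naive cells. It rose by 2.59 ± 0.26 (adjusted p = 5.68e-07), and Iars2 rose by 1.28 ± 0.18. Sars2 fell by 0.66 ± 0.21 on the deposited scale (adjusted p = 0.0118), and its difference was 1.11 with hybridization control scaling. Tars2 (-0.01) and Fars2 (-0.41) were not called.

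The promoters of the synthetases are shown because amino acid response elements are known to mark this family, and its members moved together here. Promoter windows, 250 bases before to 50 after each start, were taken from RefSeq on GRCm38.p6 and matched 56 of the 71 members and 10 of the 17 cytosolic synthetases. The composite element bound by ATF4 and C/EBP proteins, TGATGNAA (reverse TTNCATCA), was searched on both strands. Counted by gene, it occurred in any window of 5 of these 10 synthetases and of 7 of the 56 matched members. Counted by single window, it occurred in 9.9% of the 71 windows of members and in 3.97% of the 32851 windows of all genes. For 4 of them, stretches of 30 bases on the gene's own strand show it, in capitals:
Gars, chr6:55037960-55037989, plus strand: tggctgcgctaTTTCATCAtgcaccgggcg
Iars, chr13:49682126-49682155, plus strand: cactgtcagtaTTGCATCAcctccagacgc
Tars, chr15:11399655-11399684, minus strand: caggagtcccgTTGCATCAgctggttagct
Yars, chr4:129189895-129189924, plus strand: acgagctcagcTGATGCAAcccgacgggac
Among these 4, Yars alone held the element in the sense direction. Outside the synthetases, Eef2k and Eif2s3x held the element. A match of letters is a description and not a measured binding site.

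The E-box CACGTG, the site read by MYC and related factors and its own reverse complement, occurred in 21.1% of the members' windows and 7.15% of all windows. Of the synthetases shown above it lay in Iars and Tars, which also held the ATF4 element, and is shown in capitals on the gene's own strand (GRCm38.p6):
Iars, chr13:49682049-49682078, plus strand: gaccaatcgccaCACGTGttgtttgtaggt
Tars, chr15:11399622-11399651, minus strand: tccgcctgtggcCACGTGgcgcacgcgcag
The E-box also lay in the windows of Eif4e, Eif4a1, Eif5a, Eef2, Eif4h, Eef2k, Eif1b, Eif3a, Eif3f and Eif3k. Of these, Eif1b and Eif3a rose at 48 h, Eif3f fell on the deposited scale, Eif4h was below the filter, and the other 6 were not called.

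Factors for start codon choice and ribosome assembly rose in 5 of 6 cases. Eif1ax, the X-linked eIF1A gene, read 13.19, 13.38, 12.87 and 13.18 in Ag-B7 cells, against 10.77, 9.92 and 10.81 in naive cells. The groups did not overlap, and the difference was 2.65 ± 0.21 (adjusted p = 5.48e-08). Its relative Eif1a rose by 1.18 ± 0.26, and Eif1b by 1.13 ± 0.21. Eif6, which keeps free large subunits from joining small ones, read 12.53, 12.77, 12.48 and 12.77 in Ag-B7 cells, against 11.18, 10.55 and 11.17 in naive cells, a rise of 1.68 ± 0.20 (adjusted p = 4.68e-06). Eif5b, which joins the subunits, rose by 0.65 ± 0.26 (adjusted p = 0.0412) and lost that call in 10 of 20 alternatives, among them those without naive replicate 1 or 2 and without Ag-B7 replicate 1, 2 or 4. Eif5 differed by -0.14 ± 0.21 and was not called.

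Of 9 genes for initiator tRNA delivery, 6 rose and none fell. Eif2b5, the catalytic subunit of the exchange factor eIF2B, read 11.73, 12.04, 11.50 and 11.67 in Ag-B7 cells, against 10.27, 8.90 and 10.09 in naive cells. It rose by 1.98 ± 0.27 (adjusted p = 1.67e-05). Eif2b1, the regulatory alpha subunit, rose by 1.79 ± 0.24, but the other regulatory subunits did not pass the test: Eif2b4 differed by 0.48 ± 0.21 (adjusted p = 0.0561) and Eif2b2 by -0.06 ± 0.23. Eif2a and Eif2d, which can place initiator tRNA without eIF2, rose by 1.40 ± 0.23 and 1.14 ± 0.20. The eIF2 subunits Eif2s2 (beta) and Eif2s3x (gamma) rose by 0.72 ± 0.29 and 0.71 ± 0.19. Second probe sets of Eif2d and Eif2s2, both dimmer, read -1.74 and -1.43, and Eif2s2 lost its call in 11 alternatives and reversed in 1. Those 11 included the ones without naive replicate 1 or 3 and without Ag-B7 replicate 1, 2 or 4.

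The eIF3 complex, the scaffold between mRNA and small subunit, rose in 8 of 10 measured subunits. Eif3l rose by 1.31 ± 0.16, Eif3c by 1.14 ± 0.19, Eif3d by 1.11 ± 0.18 and Eif3j1 by 1.03 ± 0.21, and each of these 4 kept its call in every alternative. Eif3b, Eif3a, Eif3m and Eif3e rose by 0.93, 0.86, 0.75 and 0.58. Eif3e and Eif3m lost the call without naive replicate 2, and Eif3e also without Ag-B7 replicate 1 or 4. Eif3k differed by 0.30 ± 0.19 and was not called. Eif3f was lower by -1.25 ± 0.35 (adjusted p = 0.00576), at 7.21, 8.63, 8.47 and 8.07 in Ag-B7 cells, against 8.99, 9.60 and 9.45 in naive cells. Eif3f was the dimmest eIF3 subunit on the Ag-B7 arrays, and the filter at percentile 60 left it out. The fall was not called with quantile normalization or median centring, and with hybridization control scaling the difference was 0.52.

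Of the 7 cap-dependent eIF4 genes, 2 were higher (28.6%) and 2 lower (28.6%) on the deposited scale. That was near the share of all genes tested, 26.1% higher and 35.6% lower. None of the 7 was lower with hybridization control scaling, which called 57 of all 6279 genes lower. Eif4b, which helps the helicase eIF4A unwind mRNA, rose by 1.17 ± 0.16 (adjusted p = 1.91e-05) on its brightest probe set. Its 3 further probe sets gave 0.58, -0.17 and -1.0, and with the mean of all probe sets the difference was 0.14 and the call was lost. Eif4e2, a cap-binding relative of eIF4E, rose by 0.99 ± 0.37, with overlapping groups, while its second probe set gave -0.65, so its direction depended on the probe set. It lost that call in 9 of 20 alternatives, including those without naive replicate 1 or 3 or Ag-B7 replicate 3 or 4. The helicase gene Eif4a2 read 12.21, 11.77, 12.03 and 12.53 in Ag-B7 cells, against 13.80, 12.83 and 13.31 in naive cells, and fell by 1.18 ± 0.25 (adjusted p = 0.000917), while it was not called with median centring and the difference was 0.59 with hybridization control scaling. Its partner helicase Eif4a1 differed by 0.37 ± 0.17 and was not called (adjusted p = 0.0662). The scaffold gene Eif4g3 fell by 0.63 ± 0.26 (adjusted p = 0.0421) and kept that call in 9 of 20 alternatives. Those that lost it included the ones without naive replicate 1 or 3 or Ag-B7 replicate 2, 3 or 4, and under median centring its difference was 0.02. Eif4e itself (0.42 ± 0.36) and the scaffold relative Eif4g2 (0.07 ± 0.26) were not called.

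The 2 measured 4E-binding proteins went opposite ways on the deposited scale, but not with hybridization control scaling. Eif4ebp1 read 9.99, 10.74, 10.59 and 11.30 in Ag-B7 cells, against 7.87, 8.30 and 8.72 in naive cells. Every Ag-B7 array was above every naive array, and the rise was 2.36 ± 0.28 (adjusted p = 3.33e-06). Eif4ebp2 read 12.09, 11.60, 11.85 and 11.69 in Ag-B7 cells, against 12.61, 12.16 and 12.40 in naive cells. It fell by 0.58 ± 0.17 (adjusted p = 0.00766) on the deposited scale, with a difference of 0.06 under median centring and 1.19 under hybridization control scaling. Eif4enif1, the carrier that takes eIF4E into the nucleus, differed by 0.64 ± 0.42 and was not called.

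Among the 6 elongation factors 3 were lower and 1 higher on the deposited scale. Of all genes tested, 35.6% were lower and 26.1% higher, and 6 genes are too few to set the class apart from that share. With hybridization control scaling no elongation factor was called lower, where 57 of all 6279 genes were. Eef1a1, the main carrier of charged tRNA, read 15.95, 16.11, 16.35 and 15.82 in Ag-B7 cells, against 16.88, 17.36 and 17.44 in naive cells. It fell by 1.17 ± 0.20 (adjusted p = 0.000132), lost that call with quantile normalization, and differed by 0.60 with hybridization control scaling. Eef1b2, part of its exchange factor, read 9.39, 8.88, 9.10 and 8.18 in Ag-B7 cells, against 10.35, 11.18 and 10.65 in naive cells. The fall of 1.84 ± 0.32 (adjusted p = 0.000151) was -0.07 with hybridization control scaling. Eef1d, another part of the exchange factor, rose by 0.76 ± 0.26 (adjusted p = 0.02) and lost the call without naive replicate 2 or Ag-B7 replicate 2.

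Eef1a2, known chiefly from muscle and brain, fell by 1.45 ± 0.50 with overlapping groups, and the call was lost without naive replicate 2 or Ag-B7 replicate 1 or 4. With hybridization control scaling its difference was 0.32, and the filter at percentile 60 left it out. Eef2, the translocase, differed by -0.15 ± 0.18 and Eif5a by -0.35 ± 0.50, and neither was called. Among the regulators, Eef1akmt1, a lysine methyltransferase of eEF1A, rose by 1.80 ± 0.22 (adjusted p = 5.82e-06), and Eef2k, the kinase of eEF2, differed by -0.10 ± 0.46.

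The 4 kinases of eIF2 alpha, each tied to its own stress, did not share a direction. Eif2ak4 (GCN2, the sensor of uncharged tRNA) read 8.06, 8.45, 8.31 and 8.68 in Ag-B7 cells, against 7.19, 6.83 and 7.64 in naive cells. It rose by 1.15 ± 0.30 (adjusted p = 0.00362), and its call was lost with the 5 low-Eif2s3y arrays left out. Eif2ak1 (HRI, the haem-regulated kinase) rose by 0.78 ± 0.32 (adjusted p = 0.042), and lost the call without naive replicate 2 and without any 1 of the 4 Ag-B7 arrays. Eif2ak3 (PERK, the kinase of the endoplasmic reticulum) read 7.76, 7.99, 7.80 and 7.75 in Ag-B7 cells, against 9.56, 9.25 and 9.83 in naive cells. It fell by 1.72 ± 0.26 (adjusted p = 3.51e-05), and the difference was 0.05 with hybridization control scaling, where the median of all genes shifted to 1.54. The filter at percentile 60 left Eif2ak3 out. Eif2ak2 (PKR, which senses double-stranded RNA) differed by -0.68 ± 0.32 and was not called (adjusted p = 0.0704), but was called lower without naive replicate 1 (-0.85), with the mean of all probe sets and with no variance trend. It was called higher with hybridization control scaling (1.09, adjusted p = 0.0413, against a range of 0.0344 to 0.923 over the alternatives), and with quantile normalization the difference was 0.04.

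**Figure D2:**
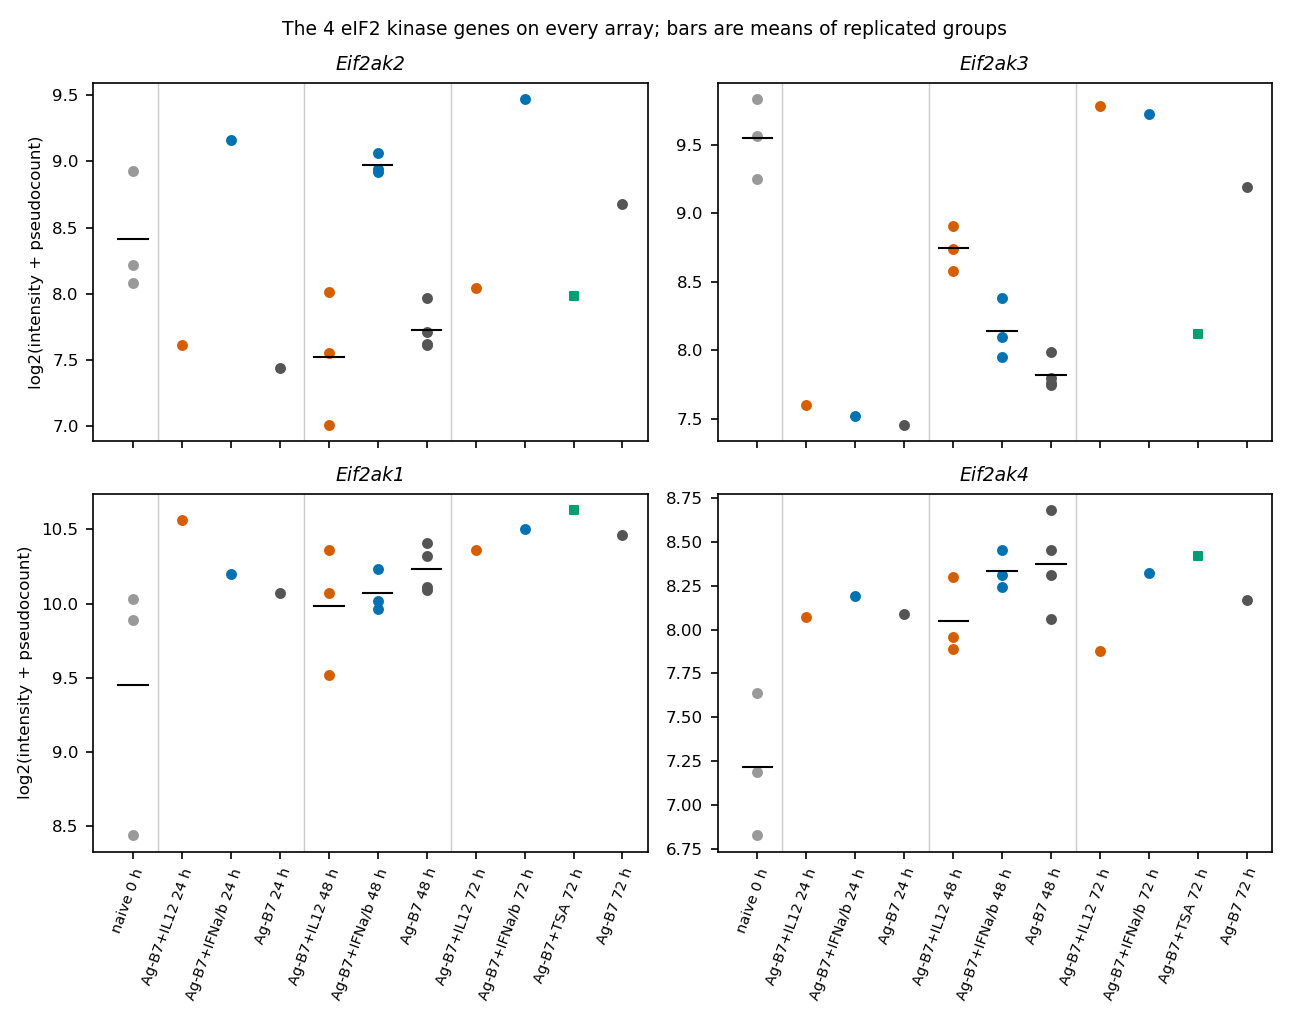
Log2 values of the 4 eIF2 kinase genes on each of the 20 arrays, by group and time, with bars at the means of replicated groups. Eif2ak2 lies highest with IFNa/b at each time, at 9.16, 8.92 to 9.06 and 9.47, and Eif2ak3 at 72 h is at 9.19 to 9.78 in all groups except Ag-B7+TSA, at 8.12.

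The pattern was already present on the 24 h array. On that 1 Ag-B7 array, 38 members were at least 2-fold above the naive mean and 6 at least 2-fold below it, against 19.3% and 32.5% of all genes. The lower count was 2 with quantile normalization and 1 with median centring. Among cytosolic synthetases, 14 of 17 were at least 2-fold higher, with a median log2 difference of 1.75. Cars was 3.63 above the naive mean, Eif4ebp1 2.89, Hars 2.84 and Gars 2.82, while Eif2ak3 was 2.09 below it. From 24 to 48 h in Ag-B7, no member was 2-fold higher and only Eif2s3y, at -1.49, was 2-fold lower, against 4.09% and 1.54% of all genes. Eif2s3y was the member whose 48 h arrays split into separate levels. With 1 array at 24 h these differences have no replicate check.

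At 48 h no member passed the threshold with either cytokine in the main fit, which did not pair arrays. In Ag-B7+IL12 against Ag-B7, limma called 0 of 69 members in either direction, against 0.621% of all genes called (0.382% higher and 0.239% lower), and 2 members had an unadjusted p below 0.05. In Ag-B7+IFNa/b against Ag-B7, 0 of 69 were called, against 0.43% of all genes (0.414% higher and 0.0159% lower), with 3 at an unadjusted p below 0.05. In Ag-B7+IL12 against Ag-B7+IFNa/b, 0 of 69 were called, against 0.94% of all genes (0.287% higher and 0.653% lower), with 4 at an unadjusted p below 0.05. The cytosolic synthetases had median differences of 0.12 with IL-12 and 0.10 with IFNa/b. Both contrasts use the same 4 Ag-B7 arrays. Deviations of Ag-B7 arrays correlated with those of Ag-B7+IL12 at equal replicate numbers (0.2757 to 0.28). With Ag-B7+IFNa/b they correlated at shifted numbers (0.2783 to 0.4538), and no fit used that pairing. A paired comparison could call more or fewer members.

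Eif2ak2, a gene known to be induced by interferon, had the widest separation at 48 h. It read 8.94, 8.92 and 9.06 in Ag-B7+IFNa/b cells, against 7.62, 7.97, 7.71 and 7.61 in Ag-B7 cells. The groups did not overlap, but the difference of 1.24 ± 0.32 missed the threshold over all genes (adjusted p = 0.163) and passed it in a fit of those 2 groups alone (adjusted p = 0.0472, with a range of 0.0472 to 1.0 over the alternatives). The IL-12 arrays read 7.55, 7.01 and 8.01, against 8.94, 8.92 and 9.06 with IFNa/b, a difference of -1.45 ± 0.34 (adjusted p = 0.0535). It passed in 5 alternatives, that without Ag-B7+IL12 replicate 3 included, over which and the rest the adjusted p ran between 0.0206 and 0.674. At 24 h the single arrays read 9.16 with IFNa/b and 7.61 with IL-12, against 7.44 with Ag-B7. It was the 1 member at least 2-fold higher with IFNa/b at 24 h, where 1.69% of all genes were, and none was 2-fold lower, against 1.21%.

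With IL-12 at 24 h, Eif5a was 1.11 higher and Eef1b2 1.08 lower than with Ag-B7 (8.28, against 9.36), where 2.15% and 1.27% of all genes passed 2-fold. With quantile normalization 0 members passed it in either direction. At 48 h Eif2ak3 read 8.74, 8.91 and 8.58 in Ag-B7+IL12 cells, against 7.76, 7.99, 7.80 and 7.75 in Ag-B7 cells. The difference was 0.92 ± 0.26 with no overlap and was not called (adjusted p = 0.186). Eif4ebp1 read 11.13, 11.61 and 11.62 in Ag-B7+IL12 cells, against 9.99, 10.74, 10.59 and 11.30 in Ag-B7 cells. Its difference of 0.80 ± 0.28 was not called (adjusted p = 0.426), but with replicate number as a block it was 1.02 and was called (adjusted p = 0.0412, with up to 0.998 in other alternatives). Same-numbered arrays of these groups deviated together. With IFNa/b, Eif4ebp1 averaged 11.30, against 10.65 in Ag-B7 cells (adjusted p = 0.969).

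Between 48 and 72 h the synthetases were lower in cells kept on Ag-B7 alone. On the 1 array at 72 h, 16 members were at least 2-fold below the 48 h mean of 4 arrays and 2 at least 2-fold above it, against 6.59% and 9.16% of all genes. With median centring 30 were lower. Of the 17 cytosolic synthetases, 8 were 2-fold lower, and 13 were below all 4 Ag-B7 arrays of 48 h, against 24.9% of all genes. Mars1 read 10.00 at 72 h, against 11.58 to 12.29 on the 48 h arrays. Cars was lower by 1.88, Rars by 1.55, Iars by 1.49, Hars by 1.44 and Nars by 1.38. At 72 h Mars1 (10.00) and Rars (10.71) lay within or below the range of their naive arrays, with naive means of 10.37 and 10.70, whereas Cars at 8.64 lay above its naive mean of 6.82. Qars, at 12.62, was not lower, and Wars, at 11.92, was above all 48 h arrays.

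Several initiation factors were also at least 2-fold lower at 72 h. Eif1ax differed by -1.55, Eif6 by -1.51, Eif2b1 by -1.50 and Eif1a by -1.45 from the 48 h mean, and Eif4ebp1 by -1.14. Eif2a, which had risen by 1.40, read 11.48 at 72 h, inside the 48 h range of 11.06 to 12.02. All 6 genes for start codon choice and subunit joining lay below the 4 arrays of 48 h. The 2 members at least 2-fold above the 48 h mean were Eif2ak3, at 9.19, against 7.83, and Eif2s3y. The 48 h mean of Eif2s3y includes the low replicates 1 and 4, at 7.44 and 5.90. Its value of 10.07 on the 72 h array was below replicates 2 and 3, at 10.70 and 10.42. The summed markers of other cells read 50460 on this array, against 10870 to 18220 on the Ag-B7 arrays of 48 h. The NK list, which holds Klrd1 and Klrk1, gave 33680 of that sum, against 1072 to 7411 at 48 h. The Ag-B7 array of 72 h has no replicate, and every comparison at 72 h below rests on it.

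**Figure D3:**
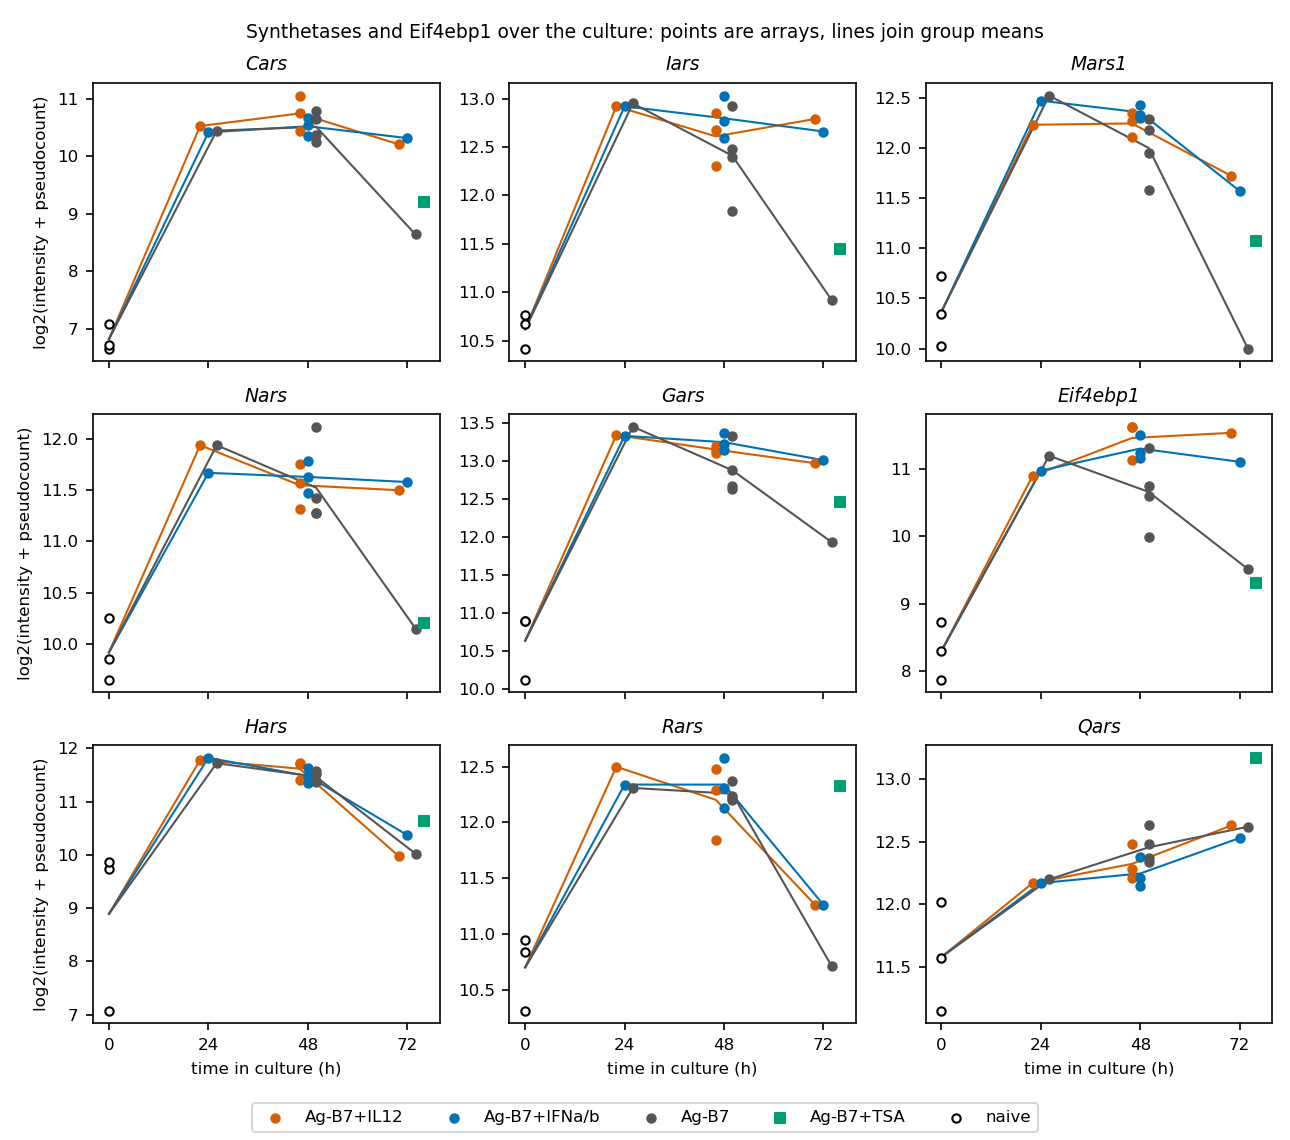
Log2 values of 8 cytosolic synthetases and Eif4ebp1 at 0, 24, 48 and 72 h, with 1 point per array and lines through group means (points at 1 time are set apart sideways by treatment). Cars, Iars, Mars1, Nars, Gars and Eif4ebp1 are lower at 72 h with Ag-B7 than with either cytokine, Hars is low in all groups, and Rars is highest with TSA.

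Both cytokine arrays of 72 h read above the Ag-B7 array of 72 h for 13 of the 17 cytosolic synthetases. They did so for 0 of the 5 mitochondrial ones and for 1965 of all 6279 genes. With IL-12, 12 members were at least 2-fold higher and 2 lower, against 5.22% and 4.14% of all genes. With IFNa/b, 13 were higher and 1 lower, against 3.93% and 3.57%. In each, 9 of the 17 cytosolic synthetases were at least 2-fold higher, and they were Aars, Cars, Eprs, Gars, Iars, Lars, Mars1, Nars and Yars in both. These 2 comparisons share the Ag-B7 array, so that overlap is no separate result. The second, dimmer probe set for Yars differed by only 0.17 with IL-12 and -0.05 with IFNa/b. No mitochondrial synthetase passed 2-fold, and with IL-12 all 5 were below Ag-B7, by -0.54 to -0.03.

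Iars read 12.79 with IL-12 and 12.66 with IFNa/b, against 10.92 with Ag-B7, differences of 1.87 and 1.74. Both cytokine arrays lay inside the range of the 48 h Ag-B7 arrays, 11.84 to 12.92. Mars1 read 11.72 with IL-12 and 11.57 with IFNa/b, against 10.00 with Ag-B7. Cars read 10.21 and 10.32 on these cytokine arrays, against 8.64. Nars read 11.50 and 11.58, against 10.15, and Eprs 11.40 and 11.68, against 10.13. Hars was not part of this group, with 9.97 with IL-12 and 10.37 with IFNa/b, against 10.02 with Ag-B7. Rars read 11.26 on both cytokine arrays, against 10.71. Wars ran the other way, at 10.80 with IL-12 and 10.97 with IFNa/b, against 11.92 with Ag-B7.

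The 4E-binding proteins differed again at 72 h. Eif4ebp1 read 11.53 with IL-12 and 11.10 with IFNa/b, against 9.51 with Ag-B7, and Eif4ebp2 read 11.40 and 11.38, against 12.41. Eif4enif1 read 8.17 with IL-12 and 7.49 with IFNa/b, against 6.11 with Ag-B7, all dim values. No member of the eIF2 and eIF2B group, the start codon group or the eIF4 group was 2-fold higher with either cytokine, and of eIF3 only Eif3a with IFNa/b was (12.31, against 11.23). Eif5a with IL-12 (7.83, against 6.60) and Eef1a2 with IFNa/b (8.73, against 7.58) completed the higher members.

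**Figure D4:**
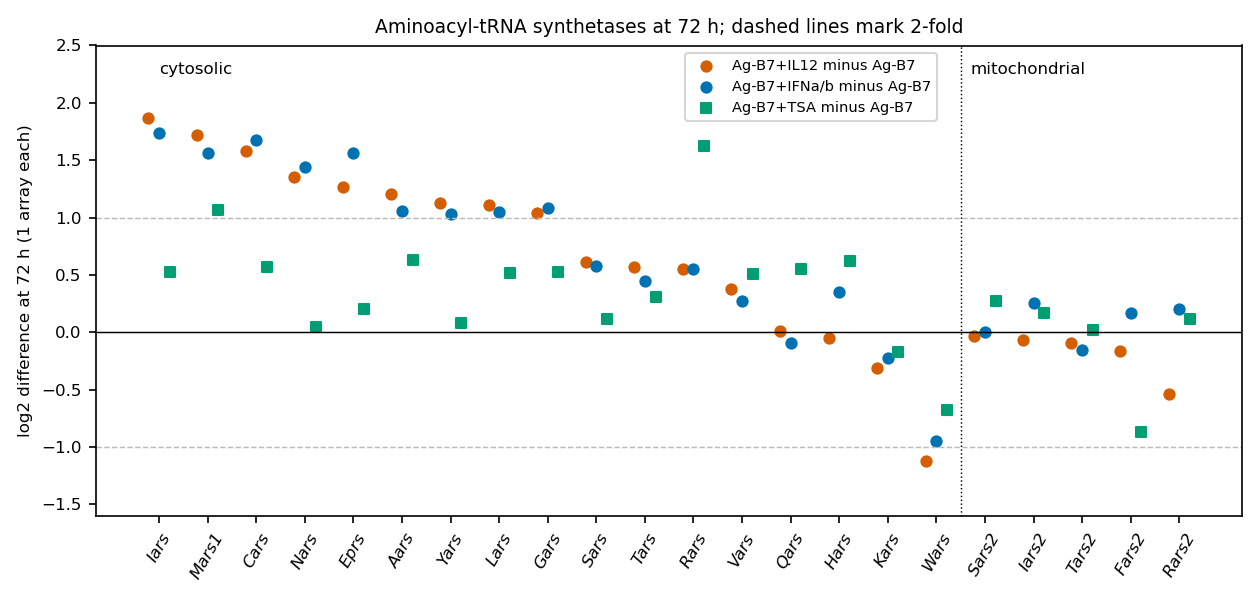
Log2 difference from the Ag-B7 array at 72 h for 22 synthetases with IL-12, IFNa/b and TSA, 1 array each, with dashed lines at 2-fold. From Iars to Gars, 9 cytosolic synthetases pass 2-fold with both cytokines, while TSA passes it only for Mars1 and Rars and no mitochondrial synthetase passes it.

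Trichostatin A was also set against the 1 Ag-B7 array of 72 h. With TSA, 8 members were at least 2-fold higher and 2 lower than with Ag-B7, against 7.09% and 8.97% of all genes. Among synthetases only Rars (12.33, against 10.71) and Mars1 (11.07, against 10.00) passed 2-fold. Iars read 11.45 with TSA, against 10.92 with Ag-B7, and Nars 10.20, against 10.15. The Ag-B7 and TSA arrays both lay below both cytokine arrays for 11 of 17 cytosolic synthetases, as they did for 15.9% of all genes. The initiation factors Eif2b1 (11.73, against 10.53), Eif3b (13.30, against 12.19) and Eif6 (12.15, against 11.13) were higher with TSA, and so were the dim genes Eif4enif1, Eef1a2 and Eif2s2. Eif2ak3 read 8.12, against 9.19, and Eif3e 11.24, against 12.26. The summed markers of other cells read 34590 with IL-12, 33120 with IFNa/b and 20470 with TSA, against 50460 with Ag-B7. Of these sums the NK list, which holds Klrd1 and Klrk1, gave 19780, 18020 and 4670, against 33680. The myeloid list gave 5885, 8361 and 6153, against 9887, and the B cell list 3992, 2896 and 4801, against 2587. The part of these markers in the differences was not tested.

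Cells kept with a cytokine were also compared between 48 and 72 h. With IL-12, 7 members at 72 h were at least 2-fold below their own 48 h mean and 1 above, against 6.39% and 9.30% of all genes. With median centring these counts were 15 and 0, and with quantile normalization 8 and 0. With IFNa/b, 6 were below and 2 above, against 4.20% and 6.75%. The 2 above included Eif2s3y, whose 48 h mean holds the low replicate 3, at 6.09. Hars, Eif1a, Eif6, Eif2b1 and Eef1akmt1 were lower in both, and Hars was the only synthetase with IL-12 and Hars and Rars were the only ones with IFNa/b. On the deposited scale Eif2ak3 was 2-fold higher in both, at 9.78 with IL-12 and 9.72 with IFNa/b at 72 h, against 48 h means of 8.74 and 8.14. The difference of these changes from that with Ag-B7 alone was not tested, since each 72 h group has 1 array.

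Genes that work beside these factors were read from a list of 62, of which 40 were tested. In Ag-B7 cells at 48 h 21 rose and 10 fell relative to naive cells, against 26.1% and 35.6% of all genes. Of the termination and recycling factors, Gspt1 rose by 2.18 ± 0.20, Etf1 by 1.48 ± 0.21 and Abce1 by 1.29 ± 0.21, while Gspt2, dim on this array, fell by 1.18 ± 0.48. The phenylalanine synthetase subunits Farsb and Farsa rose by 2.09 ± 0.26 and 1.54 ± 0.33, and the scaffold genes of the synthetase complex, Aimp2 and Aimp1, by 1.44 ± 0.18 and 1.11 ± 0.22. Dohh, which completes the hypusine of eIF5A, rose by 1.74 ± 0.24. All 4 mitochondrial translation factors tested rose, with Tufm, the mitochondrial EF-Tu, at 1.80 ± 0.22.

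The lower partners were read on the deposited scale, and other scalings were not run for them. Ppp1r15a, a stress-induced subunit of the eIF2 phosphatase, averaged 9.49 in Ag-B7 cells, against 12.18 in naive cells, and fell by 2.69 ± 0.26 (adjusted p = 3.32e-07). Pdcd4, an inhibitor of eIF4A, fell by 1.46 ± 0.30. Of 7 kinases and regulators of the mTOR and MNK branches, 5 fell, against 35.6% of all genes, including Rps6kb2 (-1.81), Tsc1 (-1.37) and Mtor (-1.03), and Akt1 rose by 0.77 ± 0.23. Atf4 differed by 0.43 ± 0.23 and was not called (adjusted p = 0.118).

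Eif2s3x and Eif2s3y encode the X- and Y-linked forms of eIF2 gamma. Eif2s3y lay between 5.90 and 7.44 on the 5 arrays named above and between 9.47 and 10.70 on the other 15, while Xist lay between 9.31 and 10.00 on the 5 and between 5.74 and 8.09 on the 15. In Ag-B7 at 48 h, Eif2s3y read 7.44, 10.70, 10.42 and 5.90, against 6.33, 9.99 and 10.27 in naive cells. The difference of -0.25 ± 1.25 therefore had the widest error of any member. Eif2s3x read 13.91, 13.67, 13.66 and 14.16 in the same Ag-B7 arrays, against 13.45, 13.01 and 12.95, and at 72 h it read 13.22 with IL-12, 13.10 with IFNa/b and 13.67 with TSA, against 13.02 with Ag-B7.

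**Figure D5:**
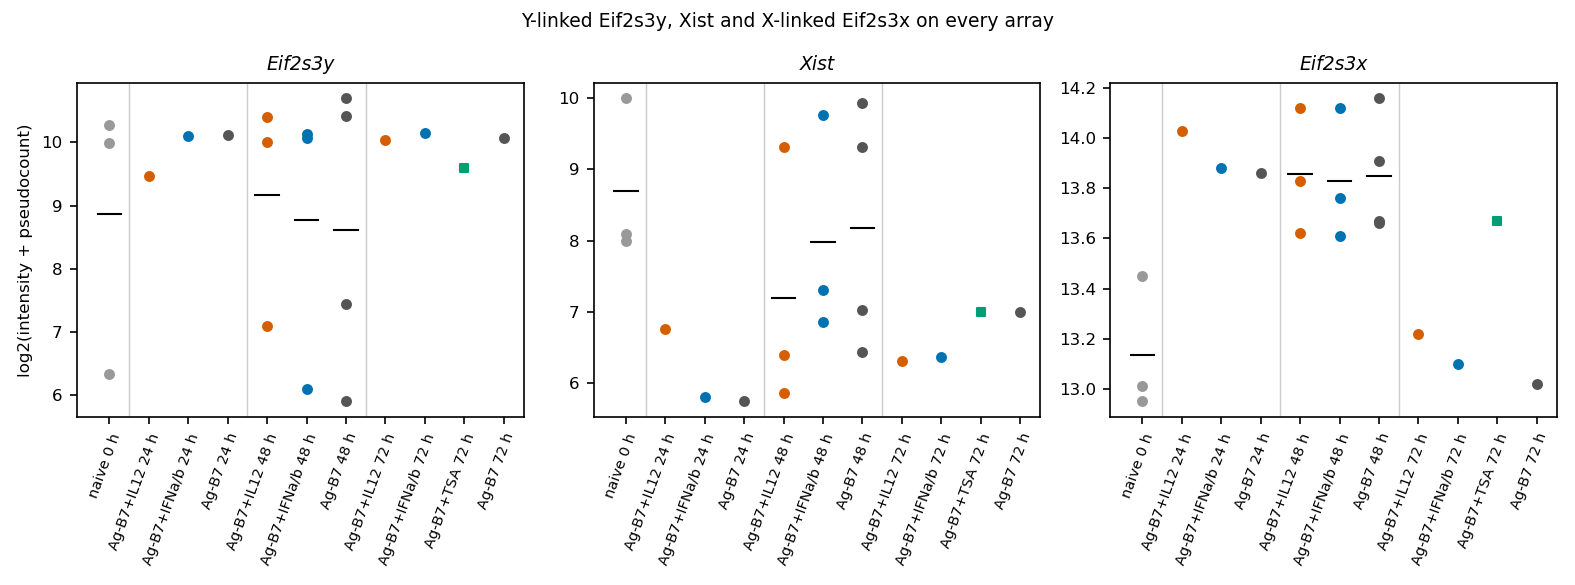
Log2 values of Eif2s3y, Xist and Eif2s3x on all 20 arrays by group and time, with bars at the means of replicated groups. Within each replicated group, 1 or 2 arrays have Eif2s3y at 7.44 or below and Xist at 9.31 or above.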

How the data were processed

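Labelled cRNA of 20 samples was measured on 1-colour Affymetrix arrays. The authors deposited MAS5 signals (named in the submitters' processing notes), a linear intensity for each of 12488 probe sets. Which MAS5 release and target intensity were used was not given in the sources used here. Trimmed means lay between 1000.46 and 1000.74 on all arrays, so differences are relative to an array's total. Genes entered as log2(intensity + 46.39) if they exceeded percentile 40 of the array on 3 or more of the 13 replicated arrays. One limma model (limma 3.58.1, R 4.3.3; variance trend, two-sided) covered those 13, with Benjamini-Hochberg adjustment over 6279 genes and calls at 0.05. The number of arrays limits precision. Groups with 1 array got values and 2-fold counts, with no test. The fit was tested on simulated data. Members and lists were chosen with earlier results of these data known; up to 12 called members per direction and a fixed set were named. Alternatives were quantile normalization, median centring, hybridization control scaling, the pseudocount, the filter, the mean of all probe sets, no variance trend, a replicate block, 2-group fits and each replicate left out. Leaving out naive replicates 2 and 3, or the 5 low-Eif2s3y arrays, was chosen after seeing the data. Equal replicate numbers paired Ag-B7+IL12 with Ag-B7 at 48 h (correlation of deviations 0.2757 to 0.28) but no other groups compared. At 48 h, Ag-B7 and Ag-B7+IFNa/b arrays correlated at shifted numbers instead. Ag-B7 replicate 2 with Ag-B7+IFNa/b replicate 1 gave 0.2831, 3 with 2 gave 0.2783 and 4 with 3 gave 0.4538. The block used equal numbers and the main fit none, so no fit paired these arrays. In low or high Eif2s3y, Ag-B7 replicates 2, 3 and 4 matched Ag-B7+IFNa/b replicates 1, 2 and 3 in that order. Ag-B7 replicates 1, 2 and 3 likewise matched Ag-B7+IL12 replicates 1, 2 and 3. Whether the matched arrays share a source was not tested. One promoter is not reported here.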

Additional observations from a re-analysis of the deposited data

Results flagged for a closer look

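In Ag-B7 cells at 48 h, the 1 group with 4 arrays, a lone array stood apart for 2 of 69 members; such a test flags about 1 in 20 groups by chance. Eif3k read 13.73 on replicate 2, against 13.45 to 13.47 on the other arrays. Eif5a read 8.42 on replicate 3, against 7.09 to 7.31 on the others.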

How the results depend on the processing

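Each array was deposited on its own scaled total, and scaling mattered most. For Ag-B7 at 48 h against naive cells, 10 members and 2236 of the 6279 genes were called lower on the deposited scale. With quantile normalization these counts were 5 and 1637, with median centring 3 and 1001, and with hybridization control scaling 0 and 57. The filter at percentile 60 gave 6 members and 1409 of 4551 genes. Without the low-Eif2s3y arrays, 5 members and 1635 genes were called lower. The members' median was 1.52 with median centring and 2.65 with hybridization control scaling. Signs turned under median centring for Eif4ebp2 (0.06) and Eif4g3 (0.02). Under hybridization control scaling they turned for Eef1a1 (0.60), Eef1a2 (0.32), Eif2ak3 (0.05), Eif3f (0.52), Eif4a2 (0.59), Eif4ebp2 (1.19), Eif4g3 (1.14), Kars (0.54) and Sars2 (1.11). With the mean of all probe sets they turned for Eif2d (-0.30), Eif2s2 (-0.35) and Yars (-0.38). Leaving out 1 array gave 38 to 42 higher, 8 to 10 lower and a median of 0.76 to 0.98. With the replicate block, 40 rose and 10 fell, and in Ag-B7+IL12 against Ag-B7 the block called 1 member higher, Eif4ebp1 (1.02). That contrast's median was -0.20 with hybridization control scaling. In Ag-B7+IFNa/b against Ag-B7, 1 member was called higher in a fit of only the 2 groups. In Ag-B7+IL12 against Ag-B7+IFNa/b, 1 was called lower with median centring, a pseudocount 4 times as large, the mean of all probe sets or no variance trend. There the median was -0.30 with hybridization control scaling and -0.07 with the filter at percentile 60. Leaving out 1 array gave 0 to 1 lower and a median of -0.07 to 0.03. Of 2-fold counts on single arrays, those lower in Ag-B7 at 24 h against naive were 2 with quantile normalization and 1 with median centring (6 as reported). From 24 to 48 h 3 were lower with median centring (1 as reported). With IL-12 at 24 h, quantile normalization gave 0 higher and 0 lower. From 48 to 72 h in Ag-B7, 30 were lower with median centring (16 as reported), and with IL-12 15 were lower with median centring (7 as reported) and 0 higher with either normalization. Against Ag-B7 at 72 h, quantile normalization gave 4 lower with IL-12 and 2 with IFNa/b, while median centring gave 0 lower with IFNa/b and 1 with TSA. The cause was not tested in any of these.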
